A study of Mus musculus with 6 samples.

Results

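Genes of the mesoderm that gives rise to blood, vessels and lateral plate were followed by mRNA-seq in mouse D4 EBs: *Kdr*, *Etv2*, *Tal1*, *Gata2*, *Lmo2*, *Cdh5*, *Pecam1*, *Fli1*, *Sox7* and *Hand1*. They were chosen by symbol for their known roles, and all 10 were found among the 15266 genes listed. All 10 also passed the low-count filter, which left 12891 genes for testing. The EBs came from 2 edited lines, both made by CRISPR-Cas9 from W9.5 mouse ES cells and both without functional EVX1, a homeodomain factor of the posterior primitive streak. EVX1-Δfs was clone 14 (n = 3), which carries small frameshift mutations on both *Evx1* alleles and still makes *Evx1* RNA and the antisense lncRNA *Evx1as*. Del#3 (n = 3) carries Evx1/Evx1asΔ2.6kb, a deletion of 2.6 kb that takes out the promoters of both genes. Both lines were cultured in the same way, in medium containing serum and without LIF, for 4 days in suspension. The comparison asks whether reducing *Evx1as* on top of losing EVX1 alters these genes. It holds no unedited EBs, so it does not measure the effect of EVX1 itself. The lines also differ in *Evx1* RNA, in the deleted DNA and in clonal origin, and the comparison does not separate *Evx1as* from these. The paper reports residual expression of the last exon of *Evx1as* in the line with the large deletion. Differentiations to be compared were set up side by side, each replicate on its own day, and EVX1-Δfs is represented by 1 clone. The titles give replicate numbers only. That libraries of the same number share a day is an assumption, made here throughout.

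In the gastrulating mouse embryo, mesoderm cells leaving the posterior primitive streak switch on *Kdr*, the receptor for VEGFA, and part of them become hemangioblasts, progenitors with both blood and endothelial potential. The ETS factor ETV2 starts this programme, the bHLH factor TAL1 works with the LIM-only adaptor LMO2 and with GATA2 in blood progenitors, and FLI1 and SOX7 act in early endothelium, which then bears the adhesion molecules VE-cadherin (*Cdh5*) and PECAM1. HAND1 is a bHLH factor of lateral plate and extraembryonic mesoderm. None of the 10 belongs to hemangioblasts alone: *Pecam1* is also made by pluripotent cells, *Sox7* by primitive endoderm, and *Hand1* and *Gata2* by trophoblast.

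The 3 EVX1-Δfs libraries held 9024579 to 15699124 reads on the genes of the table, and the 3 Del#3 libraries 9729013 to 12231851. Values are given as normalized counts, that is, reads divided by a factor for the depth of the library. The lines differed at the edited locus as labelled. *Evx1* had 4023, 3132 and 2582 reads in EVX1-Δfs replicates 1, 2 and 3 and 48, 28 and 31 in Del#3, a log2 fold change of -6.45 (SE 0.25) with an adjusted p of 1.05e-06 in limma. *Evx1as*, listed as 5730457N03Rik, had 879, 588 and 571 reads against 21, 22 and 30. The 2 transcripts lie on opposite strands and overlap at their starts, and HTSeq was run at its standard settings, which count by strand.

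None of the 10 genes was called different between the lines. At an adjusted p under 0.05, limma called 0 of 10, against 2 of 12891 genes tested (0.0155%). edgeR's quasi-likelihood test (0.0155% of all genes) and DESeq2 (0.0197%) also called 0 of 10. With a block for the replicate day, limma (0.0233% of all genes) called 0 of 10 as well. DESeq2 with the block gave no adjusted p for *Fli1* and *Sox7* and called none of the others. It called 15 of the 9642 genes for which it gave an adjusted p (0.156%). At an unadjusted p under 0.05, 0 of 10 passed in limma, where 1.03% of all genes did, in limma with the block (4.62%), in edgeR (1.12%) and in DESeq2 (1.38%). In limma without the block the lowest unadjusted p was 0.180, for *Hand1*. The log2 fold change of Del#3 against EVX1-Δfs was positive for 7 genes and negative for 3 (*Kdr*, *Etv2* and *Lmo2*), where 50.4% of all genes were positive. It lay between -0.31 and 0.48, with a median of 0.13 beside 0.0022 over all genes tested. The groups overlapped for every one of the 10, while among all genes 1.71% had every Del#3 library above every EVX1-Δfs library and 1.8% had every one below. The median SE was 0.32 on the log2 scale, both for the 10 and over all genes tested. In bulk EBs a smaller number of cells of a type and less RNA per cell cannot be told apart, here or below.

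**Figure D1:**
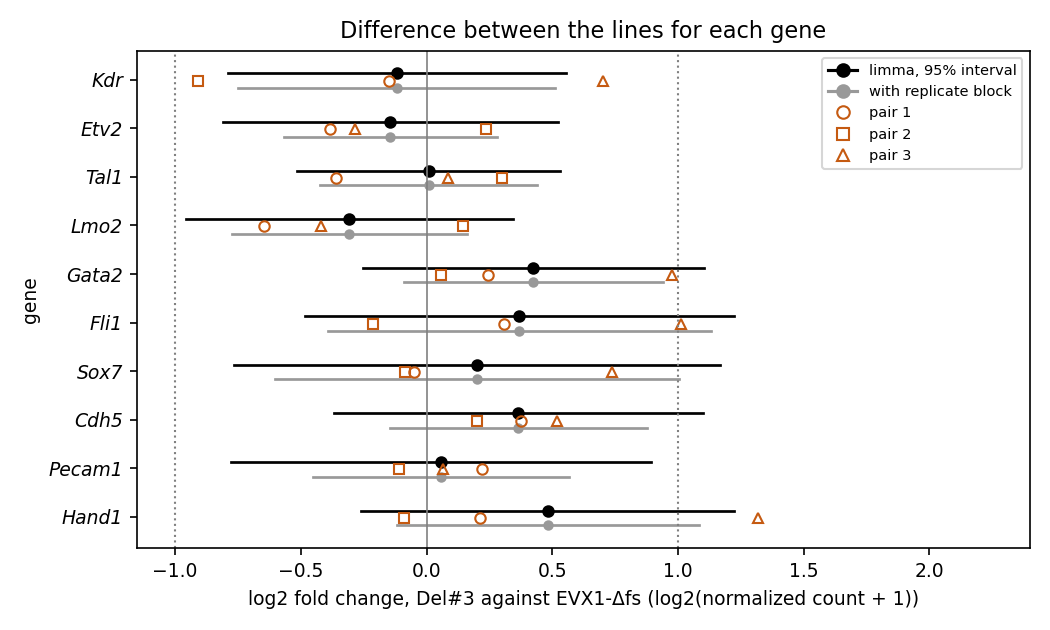
Log2 fold change of Del#3 against EVX1-Δfs for each of the 10 genes, as points with 95% confidence intervals from limma without and with a block for the replicate day (n = 3 per line). Every interval without the block includes 0, and those of *Kdr*, *Etv2*, *Tal1*, *Lmo2* and *Pecam1* lie inside a 2-fold change either way.

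The intervals state how large a difference could have gone unseen. For 5 of the 10 (*Kdr*, *Etv2*, *Tal1*, *Lmo2* and *Pecam1*) the 95% interval lay within 2-fold in both directions, as it did for 61.1% of all genes. With a block for the replicate day it did so for 7, adding *Gata2* and *Cdh5*, where the share over all genes was 76.2%. For *Hand1*, *Fli1* and *Sox7* a change of more than 2-fold upwards stayed inside the interval in both fits. An exact permutation test of single genes cannot go below p = 0.1 with 3 libraries against 3, and the 10 genes gave p from 0.2 to 0.9.

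The stretch before the transcription start is shown for the 4 genes matched in the RefSeq promoter table (*Kdr*, *Etv2*, *Tal1* and *Gata2*), and was searched for motifs of the ETS, bHLH and GATA families, to which several of the 10 factors belong. *Lmo2*, *Cdh5*, *Pecam1*, *Fli1*, *Sox7* and *Hand1* were not matched. Each run holds the 250 bases before the start, 5′ to 3′ on the strand of the gene, from build GRCm38.p6, which is not the build of the counts. The windows are chr5:75978456-75978705 (minus strand) for *Kdr*, chr7:30635853-30636102 (minus strand) for *Etv2*, chr4:115056176-115056425 (plus strand) for *Tal1* and chr6:88193641-88193890 (plus strand) for *Gata2*. Capitals mark exact matches, on either strand, to a GATA motif (AGATAA), a pair of ETS motifs (CCGGAA and CAGGAA) or an E-box (CAGATG), none of which overlap each other here.
Kdr: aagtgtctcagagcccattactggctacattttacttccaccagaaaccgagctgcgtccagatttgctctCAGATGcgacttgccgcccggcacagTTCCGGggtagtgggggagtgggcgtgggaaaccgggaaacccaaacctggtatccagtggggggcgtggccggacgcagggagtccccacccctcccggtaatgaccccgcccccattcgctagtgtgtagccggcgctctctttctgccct
Etv2: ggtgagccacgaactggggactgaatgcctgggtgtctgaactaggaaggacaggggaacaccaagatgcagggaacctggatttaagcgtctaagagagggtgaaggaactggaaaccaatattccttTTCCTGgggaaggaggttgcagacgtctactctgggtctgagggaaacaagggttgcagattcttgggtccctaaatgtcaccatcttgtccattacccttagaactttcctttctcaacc
Tal1: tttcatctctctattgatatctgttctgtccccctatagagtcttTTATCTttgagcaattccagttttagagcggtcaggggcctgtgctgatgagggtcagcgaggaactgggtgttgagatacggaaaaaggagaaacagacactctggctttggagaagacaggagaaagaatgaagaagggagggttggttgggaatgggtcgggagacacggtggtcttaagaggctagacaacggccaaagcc
Gata2: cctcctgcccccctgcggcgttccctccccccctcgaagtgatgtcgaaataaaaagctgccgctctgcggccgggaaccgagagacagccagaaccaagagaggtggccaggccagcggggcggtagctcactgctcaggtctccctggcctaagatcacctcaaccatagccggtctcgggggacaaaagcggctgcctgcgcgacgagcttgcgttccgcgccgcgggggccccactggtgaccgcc

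The *Kdr* window held an E-box beginning 179 bases and a CCGGAA match beginning 153 bases before the start, the latter on the opposite strand. The *Etv2* window held a CAGGAA match on the opposite strand at 121 bases. In *Tal1* a GATA match lay on the opposite strand at 205 bases, and the *Gata2* window held none of these letters. The second RefSeq starts of *Tal1* and *Gata2* also gave no match. Among 32851 windows of the same 250 bases, AGATAA occurred in 9.99%, CCGGAA in 12%, CAGGAA in 25.7% and CAGATG in 14.4%. A match describes the letters only and not a bound site.

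*Kdr* (chromosome 5, 76328852 to 76374483, minus strand, in NCBIM37) encodes the VEGF receptor that marks the mesoderm from which hemangioblasts come. Its normalized counts were 1869, 1938 and 1400.1 in EVX1-Δfs replicates 1, 2 and 3 and 1685, 1031 and 2281 in Del#3. Del#3 held both the lowest and the highest library, and the EVX1-Δfs values lay between them. The means were 1736 ± 293 and 1666 ± 625 (SD, n = 3), and the log2 fold change was -0.12 (SE 0.30, 95% interval -0.79 to 0.55, exact permutation p = 0.8). The 3 same-day pairs did not share a direction: Del#3 minus EVX1-Δfs was -0.15, -0.91 and 0.70 on the log2 scale.

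**Figure D2:**
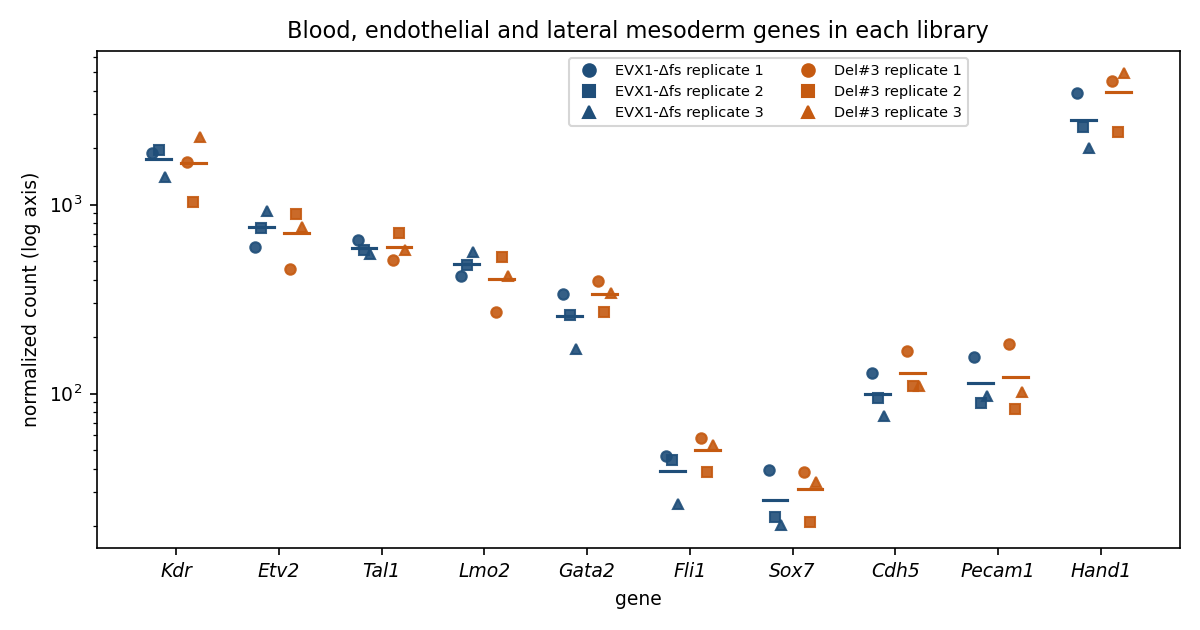
Normalized counts of the 10 genes in each of the 6 libraries on a log axis, with 1 symbol per library and a short line at the mean of each group. The values of the lines overlap in all 10 genes. The Del#3 values of *Kdr* run from 1031 to 2281.

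*Etv2* (chromosome 7, 31418635 to 31421308, minus strand) encodes the ETS factor at the start of the blood and endothelial programme. It had 596, 754 and 929.8 normalized counts in EVX1-Δfs replicates 1, 2 and 3 and 457, 888 and 764 in Del#3. Replicate day 1 gave the lowest value in each line. The log2 fold change was -0.14 (SE 0.30, interval -0.81 to 0.52), with pair differences of -0.38, 0.24 and -0.28.

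*Lmo2* (chromosome 2, 103798143 to 103822035, plus strand), the adaptor that bridges TAL1 and GATA factors, had 421, 478 and 559 against 269, 529 and 418. It too was lowest on replicate day 1 in each line, with Del#3 replicate 1 below all others. Its log2 fold change of -0.31 (SE 0.29, interval -0.96 to 0.34) was the most negative of the 10, and the pairs gave -0.65, 0.15 and -0.42. *Etv2* and *Lmo2* thus had the same sign in each of the 3 pairs, negative on days 1 and 3 and positive on day 2.

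*Tal1* (chromosome 4, 114729031 to 114744360, plus strand), the bHLH factor needed for blood, was the steadiest gene of the group. Its normalized counts were 652, 572 and 545 in EVX1-Δfs and 508, 705 and 578 in Del#3, with means of 589.6 ± 55.8 and 597 ± 99.9 (SD, n = 3). The lowest and the highest library were both Del#3. The log2 fold change was 0.0085 (SE 0.24), and its interval allowed changes down to -0.52 and up to 0.53.

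*Gata2* (chromosome 6, 88143885 to 88157024, plus strand) encodes a zinc finger factor of blood progenitors. It had 335, 260.2 and 172 in EVX1-Δfs replicates 1, 2 and 3 and 396, 271 and 341 in Del#3. In each pair the Del#3 library was the higher one, by 0.24, 0.056 and 0.98 on the log2 scale, and the gap was widest on day 3, when the EVX1-Δfs library was lowest. The log2 fold change was 0.43 (SE 0.31, interval -0.25 to 1.11, exact permutation p = 0.2). With the replicate day blocked, *Gata2* had the lowest unadjusted p of the 10 in limma, 0.0943 (adjusted p = 0.992), while in DESeq2 *Hand1* had the lowest, 0.0772, and *Gata2* had 0.130.

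*Fli1* (chromosome 9, 32229793 to 32348974, minus strand) and *Sox7* (chromosome 14, 64562511 to 64569569, plus strand), factors of early endothelium, were scarce. *Fli1* had 46.9, 44.5 and 26.0 normalized counts against 58.2, 38.3 and 53.4, and *Sox7* had 39.6, 22.3 and 20.1 against 38.3, 20.9 and 34.2. Each gene was lowest in EVX1-Δfs replicate 3, and the ranges of the lines overlapped. The log2 fold changes were 0.37 (SE 0.39) for *Fli1* and 0.20 (SE 0.44) for *Sox7*, the widest errors of the 10. Their intervals reached 1.22 and 1.17.

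*Cdh5* (chromosome 8, 106625525 to 106668402, plus strand) encodes VE-cadherin, the junction protein of endothelial cells. It had 129, 94.9 and 75.6 normalized counts in EVX1-Δfs and 167, 109 and 109 in Del#3. As with *Gata2*, Del#3 was above EVX1-Δfs in all 3 pairs, by 0.38, 0.20 and 0.52. These 2 genes were the only ones of the 10 to do so, where 12.1% of all genes did, and 0 of 10 were lower in all 3 pairs, where 11% of all genes were. EVX1-Δfs replicate 1 still lay above Del#3 replicates 2 and 3, so the groups overlapped. The log2 fold change was 0.37 (SE 0.33, interval -0.37 to 1.10).

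*Pecam1* (chromosome 11, 106515531 to 106611942, minus strand), an adhesion molecule of endothelial and pluripotent cells, had 156, 89.1 and 96.9 against 182, 82.4 and 101. Both lines were high on replicate day 1 and low on the other days, and the lines differed by 0.22, -0.11 and 0.066 within the pairs. Its log2 fold change was 0.059 (SE 0.38, interval -0.78 to 0.90).

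*Hand1* (chromosome 11, 57642207 to 57646320, minus strand), the lateral mesoderm factor, was the most abundant of the 10 and had the largest difference between lines. It had 3893, 2562 and 1981 normalized counts in EVX1-Δfs replicates 1, 2 and 3 and 4518, 2409 and 4946 in Del#3. The means were 2812 ± 980.2 and 3958 ± 1358 (SD, n = 3), and the log2 fold change was 0.48 (SE 0.34, interval -0.26 to 1.22, exact permutation p = 0.3). Most of the difference came from replicate day 3, on which the lowest EVX1-Δfs library met the highest Del#3 library. The pairs differed by 0.22, -0.088 and 1.32.

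Of the 3 pairs, that of day 3 was the widest for 5 of the 10 genes (*Gata2*, *Cdh5*, *Fli1*, *Sox7* and *Hand1*). The share of all genes with their widest pair on day 3 was not worked out, so this count does not set the members apart. Across all genes tested, the libraries of day 3 did not deviate together (r = -0.05). Del#3 was higher on day 3 for 8 of the 10 genes, where 50.1% of all genes were, and for 5 of 10 on each of days 1 and 2. The median pair difference of the 10 was 0.61 on day 3 beside 0.00090 over all genes tested, and 0.083 and -0.016 on days 1 and 2 beside -0.018 and 0.024. *Hand1*, *Fli1*, *Gata2*, *Sox7* and *Kdr* had the widest gaps on that day, from 0.70 to 1.32, and *Etv2* (-0.28) and *Lmo2* (-0.42) went the other way. With 1 library of each line per day, this is a description of a single pair. The same Del#3 library, replicate 3, had the lowest sum of the 10 pluripotent cell markers (7980.0 normalized counts, against 9940.0 to 12930 in the other 5 libraries). *Pou5f1*, the pluripotency factor, stood at 4444 there against 6464 to 7890.2. Of the 10 markers, 4 were lowest in this library, 3 in EVX1-Δfs replicate 1 and 3 in Del#3 replicate 2. The markers other than *Pou5f1* summed to 3536 there, within their range of 3314 to 6219.6 in the other libraries. The part of this in the day 3 values was not tested.

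Compared per length, the 10 genes differed far more from each other than between lines. Dividing each gene's mean normalized count over the 6 libraries by its exon length gave *Hand1* 1695 per kb, *Etv2* 491, *Kdr* 234, *Lmo2* 206, *Tal1* 135 and *Gata2* 88.3. The lowest 4 were *Cdh5* at 28.6 per kb, *Pecam1* at 27.3, *Fli1* at 14.3 and *Sox7* at 8.86. The ranges of neighbours in this order were separate between *Hand1* and *Etv2*, between *Gata2* and *Cdh5* and between *Pecam1* and *Fli1*, and overlapped for all other neighbours. With the longest transcript as the length, the order changed only in that *Cdh5* and *Pecam1* swapped places.

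The replicate day took a larger share of the spread of these genes than the line did. Of the sum of squares of the log2 values over the 6 libraries, the replicate day took a median of 49.7% for the 10 genes and 64.4% over all genes tested, and the line took 12.9% and 6.70%. The days take 2 degrees of freedom and the line 1. *Pecam1* (96.9%), *Etv2* (80.9%), *Sox7* (71.7%) and *Cdh5* (69.5%) followed the day most closely. *Kdr* and *Tal1* followed neither, since 79.4% and 76.2% of their sums of squares lay outside both. The line took most in *Gata2* (30.7%), *Cdh5* (27.0%), *Fli1* (24.9%) and *Hand1* (23.7%).

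**Figure D3:**
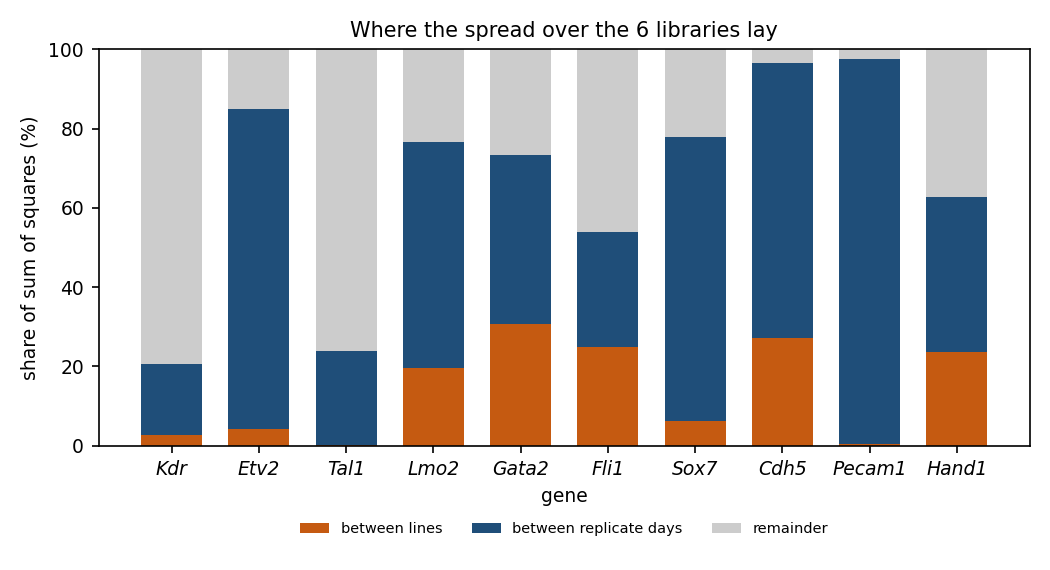
Share of each gene's sum of squares of log2(normalized count + 1) over 6 libraries that lies between lines, between replicate days and in the rest, in percent. The share between days is above the share between lines in all 10 genes and reaches 96.9% in *Pecam1*. Over all genes tested the median shares are 64.4% between days and 6.70% between lines, and the days hold more degrees of freedom.

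No member passed the test of the days. The limma F-test called 0 of 10 at an adjusted p under 0.05, against 4.24% of all genes, and edgeR and DESeq2 called 0 of 10 too. At an unadjusted p under 0.05 it took 2, *Pecam1* and *Etv2*, where 27.7% of all genes passed, and their adjusted p in limma was 0.112 and 0.135. The mean of both lines was highest on replicate day 1 for 6 genes (*Gata2*, *Cdh5*, *Pecam1*, *Fli1*, *Sox7* and *Hand1*), where 42.4% of all genes were. It was lowest on that day for *Etv2* and *Lmo2*, where 38.9% of all genes were.

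**Figure D4:**
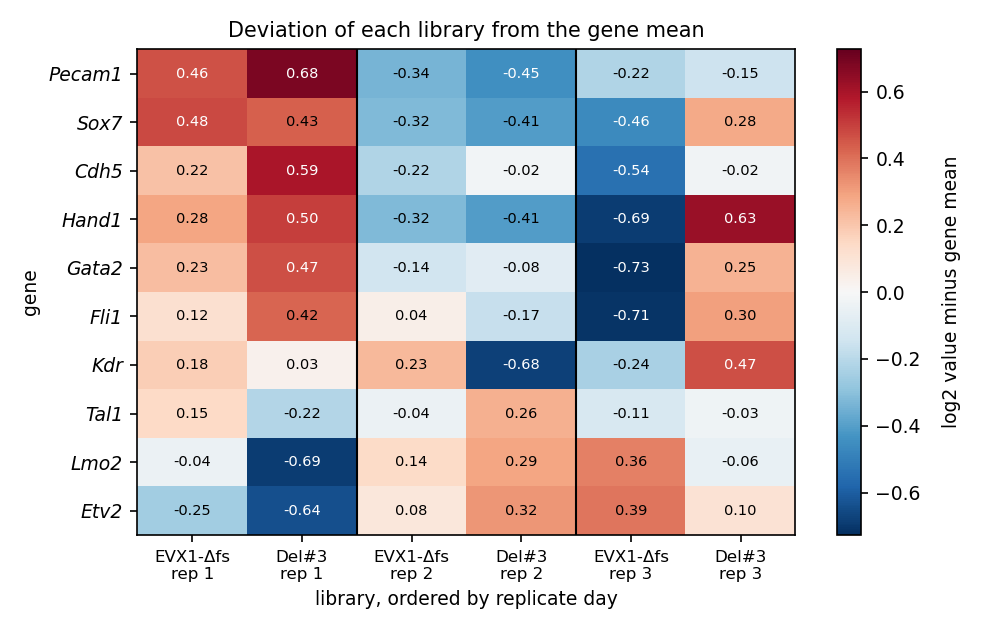
Deviation of log2(normalized count + 1) from the mean of each gene over 6 libraries, with columns for the libraries in order of replicate day and rows for the 10 genes. *Pecam1* and *Sox7* are high in both libraries of day 1 and *Etv2* and *Lmo2* are below their means there, while *Hand1*, *Gata2* and *Fli1* are lowest in EVX1-Δfs replicate 3.

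Gene length moved with the days across the whole table, so the 10 genes were set against genes of like length. From the shortest to the longest quartile of genes by exon length, the median deviation of replicate day 1 was -0.15, -0.016, 0.066 and 0.21 on the log2 scale, and the median pair difference of day 3 was -0.23, -0.063, 0.057 and 0.24. *Etv2* and *Lmo2* are short and went the same way as their quartile on both measures. *Hand1*, also in the shortest quartile, went the opposite way, with its day 3 pair difference of 1.32 lying 1.55 above that quartile's median. Measured from the quartile median, the day 3 difference was 0.47 for *Kdr*, -0.049 for *Etv2* and -0.18 for *Lmo2*, nearer 0 than before. It also came nearer 0 for *Cdh5*, *Tal1* and *Pecam1*. For *Gata2*, *Fli1* and *Sox7* it grew, as for *Hand1*. The part of length in the members' values was not tested.

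The genes were also compared by their profiles. Likeness was measured as the root mean square difference between log2 profiles over the 6 libraries, each centred on its own mean, so that 0 means the same profile. *Gata2* and *Fli1* were near each other, at 0.097, *Fli1* being the 9th nearest of all tested genes to *Gata2* and *Gata2* the 13th nearest to *Fli1*. The 3 nearest to *Gata2* were *Rnf31*, *Farp1* and *Arid1b*, and those to *Fli1* were *Midn*, *Mpp7* and *Jup*. For *Hand1* the nearest were *Lin54*, *Fmnl2* and *Slx4ip*, at 0.10 to 0.12, and *Sox7* came 54th, while *Hand1* was 206th for *Sox7*. *Etv2* had *Nrf1*, *Trappc4* and *Ttl* nearest, with *Lmo2* as 277th, and *Etv2* was 107th for *Lmo2*. The nearest member was *Gata2* for *Cdh5*, in 80th place, *Sox7* for *Pecam1*, in 537th, and *Lmo2* for *Tal1*, in 4346th. *Kdr*, nearest to *Prkab2*, *Igf2bp3* and *Plxna4*, had its closest member, *Fli1*, in 1568th place. With only 6 libraries and a day effect shared by many genes, close profiles are common and are given as a description.

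In the wider pathway no gene was called between lines, where limma called 0.0155% of all genes tested. With so few calls over the table, a count of 0 does not set a short list apart. Of 10 VEGF ligands and receptors, 0 were called by limma, with a median log2 fold change of 0.00080. The other abundant receptors were *Nrp1*, a co-receptor, at 1108 ± 379.8 normalized counts in EVX1-Δfs and 1573 ± 586 in Del#3 (SD, n = 3), *Nrp2* (725 ± 263 and 683 ± 229) and *Flt1*, the decoy receptor (495 ± 44.5 and 490.0 ± 30.1). *Nrp1* was called between replicate days (adjusted p = 0.0389 in limma). Of 25 blood and endothelial transcription factors 23 were tested and 0 called, with a median of 0.0028. Beside *Etv2* its most abundant genes were *Tcf3*, a partner of TAL1 (2137 ± 215 and 2419 ± 272), *Zfpm1*, which encodes the GATA cofactor FOG1 (1622 ± 542 and 1839 ± 513), and *Ldb1*, the dimerizing partner of LMO2 (1546 ± 49.1 and 1701 ± 98.0). Of 22 endothelial surface genes 20 were tested and 0 called, with a median of 0.025. The most abundant of these were *Aplnr*, the apelin receptor (829 ± 143 and 873 ± 266), *Egfl7* (835 ± 165 and 798 ± 173), *Eng* (327 ± 145 and 306 ± 36.8) and *Rasip1* (173 ± 64.8 and 208 ± 17.04).

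**Figure D5:**
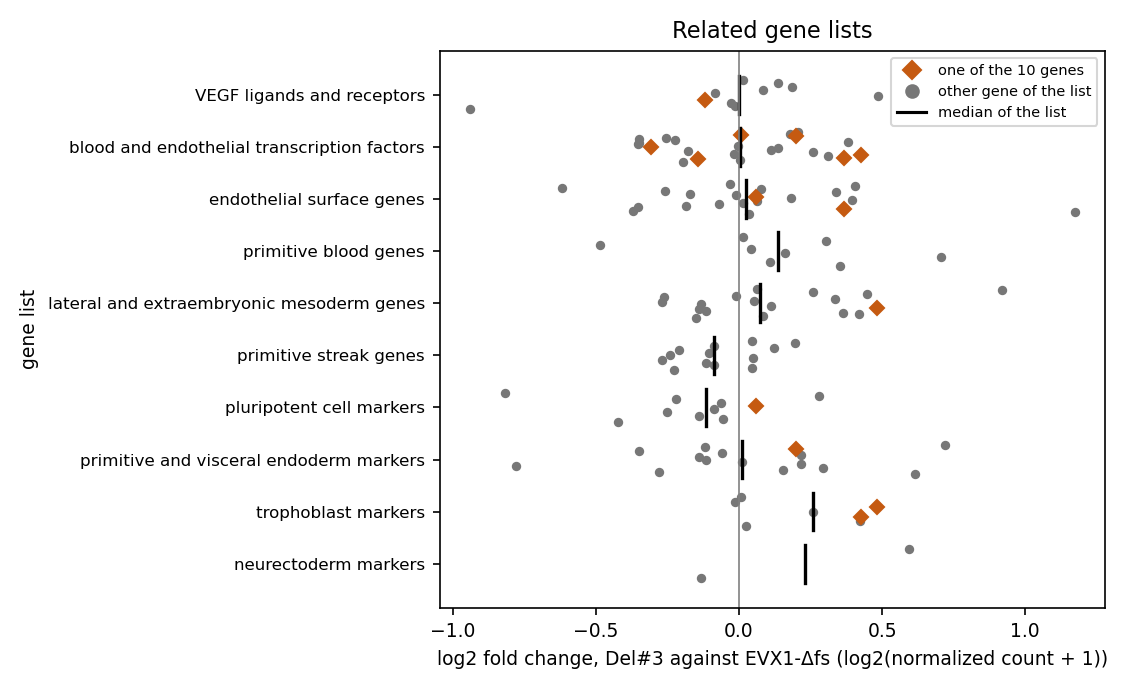
Log2 fold change of Del#3 against EVX1-Δfs for the tested genes of 10 lists, 1 point per gene, with diamonds for the 10 genes described and a bar at the median of each list. The medians run from -0.11 for pluripotent cell markers to 0.26 for trophoblast markers, where *Hand1* and *Gata2* are 2 of 7 genes and the other 5 have a median of 0.024, and no point passes an adjusted p of 0.05 in limma.

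Downstream of the hemangioblast, 8 of 10 primitive blood genes were tested and 0 were called between lines, where limma called 0.0155% of all genes. The median log2 fold change was 0.14 and 7 were positive, where 50.4% of all genes were. *Hbb-bh1*, an embryonic globin, had 620.5 ± 193 and 627 ± 141 normalized counts, and *Kit*, the receptor of blood progenitors, 584 ± 82.7 and 590.5 ± 94.3. *Hba-x*, another embryonic globin, was called between replicate days (adjusted p = 0.0238 in limma), with 221, 53.9 and 78.0 in EVX1-Δfs and 355, 54.6 and 67.3 in Del#3, so it was high on day 1 in each line like *Pecam1*. Of 18 lateral and extraembryonic mesoderm genes 18 were tested and 0 called, with a median of 0.073. Besides *Hand1*, *Msx1* (2495 ± 207 and 2618 ± 522), *Tbx3* (1427 ± 287 and 1712 ± 363) and *Mesp1* (1383 ± 162 and 1203 ± 430) were the most abundant. At an unadjusted p under 0.05, limma took 0 genes of these 5 lists without the block. With the block it took 2 of the 79 tested, where 4.62% of all genes passed. These were *Nrp1* (adjusted p = 0.873 in limma) and *Calcrl*, a receptor subunit of endothelial cells (adjusted p = 0.962), and 0 of the 79 passed after adjustment.

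Markers of the other tissues that share some of the 10 genes were measured beside them. Trophoblast markers other than *Hand1* and *Gata2* summed to 844 to 1069 normalized counts in EVX1-Δfs and 1084 to 1341 in Del#3. These ranges did not overlap, and how often sums of other genes separate the lines was not tested. *Cdx2* was the largest item of each sum, and the paper counts it among genes of posterior patterning. Of the 7 tested markers of the list, *Hand1* and *Gata2* included, 0 were called, and the median log2 fold change was 0.26, or 0.024 over the 5 that are not members. *Cdx2* (512 ± 113 and 681 ± 84.2) and *Gata3* (204 ± 32.8 and 249 ± 75.4) led the list after the members *Hand1* and *Gata2* were set aside. The trophoblast factor *Elf5* was near 0 in both lines, at 2.84 and 2.14 on average, and *Prl3d1* was not among the genes listed. Endoderm markers other than *Sox7* summed to 14206 to 16471 and 14849 to 16152, and 0 of the 15 tested markers of the list, *Sox7* included, were called. The list was led by *Col4a1* (5098 ± 661 and 5682 ± 803), *Sparc*, *Col4a2* and *Cer1*. *Afp* (3.45 and 2.87 on average) and *Amn* (5.80 and 11.7) did not pass the low-count filter. Pluripotent cell markers other than *Pecam1* summed to 9784 to 12732 and 7879 to 12847, and 0 of the 10 tested, *Pecam1* included, were called. The list was led by *Pou5f1* (6564 ± 87.4 and 6479 ± 1806), *Nanog*, *Sox2* and *Fgf5*. *Zfp42* among them had an unadjusted p of 0.0156 (adjusted p = 1.00 in limma), with 343, 341 and 457 in EVX1-Δfs and 288, 181 and 187 in Del#3. Primitive streak genes, from which the mesoderm comes, had 13 of 13 tested, 0 called and a median of -0.089, with *Eomes* (3526 ± 694 and 3079 ± 959), *Mesp1*, *T* and *Sp5* the most abundant. Of 6 neurectoderm markers 2, *Nes* and *Sox3*, were tested and 0 called, and *Pax6* (8.08 and 5.20) and *Sox1* (1.88 and 4.21) were near 0 on average. The part of any of these tissues in the values of the 10 genes was not tested.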

How the data were processed

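mRNA was measured in D4 EBs of EVX1-Δfs and Del#3, 3 libraries each, sequenced on an Ion Proton instrument. The authors mapped reads to mm9 (NCBIM37) with TopHat2 and TMAP and took counts per gene from HTSeq. The deposited values are a signal, the counts after division by a size factor per library. Dividing by the value of 1 read gave whole reads, within a tolerance of 0.01, for 100% of entries.

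Libraries were grouped by their titles. Genes passing filterByExpr of edgeR (4.0.16, minimum count 10) were tested with limma (3.58.1, R 4.3.3, intensity trend) on log2(normalized count + 1) without covariates, with Benjamini-Hochberg adjustment at 0.05. Replicate days were tested by a limma F-test with line as a term. edgeR's quasi-likelihood test on the recovered reads called 2 genes between lines and DESeq2 (1.42.0) called 3. Scripts were tested on simulated data. Exon lengths and coordinates came from GENCODE vM1.

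The replicate numbers are taken to pair the libraries, since the series' design sets each side by side differentiation on its own day. The titles do not name the days. Same-numbered libraries deviated together across genes on days 1 and 2 (r = 0.74 and 0.32) and not on day 3 (r = -0.05). The p-values reflect the spread between 3 separate differentiations, and intervals cover that spread.

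All 10 members were named, with the called or else the 4 most abundant genes of each related list and the 3 nearest profiles of members the results turn on. *Zfp42*, *Elf5*, *Afp*, *Amn*, *Calcrl*, *Hbb-bh1* and *Kit* were picked after their values were seen. The members and lists were chosen with earlier results of these data known. Alternatives were TMM factors, total reads, pseudocounts of 0.1 and 5, no filter, at least 10 reads in every library, edgeR, DESeq2, the replicate block and leaving out each library. No library of unedited EBs was analysed here.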

Additional observations from a re-analysis of the deposited data

How the results depend on the processing

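Between lines 0 of 10 members were called under each of 16 alternatives, and their lowest adjusted p was 0.992. DESeq2 with the replicate block gave no adjusted p for *Fli1* and *Sox7*. That fit called 15 genes over the table, where DESeq2 without the block called 3 and limma without it 2. The limma replicate block gave 3 and changed no member's call. Between replicate days the 546 genes called became 347 with TMM factors, 317 with total reads and 1302 with DESeq2, and 0 members were called in each. The cause was not tested. *Hand1*, *Gata2*, *Cdh5*, *Fli1*, *Sox7* and *Lmo2* kept their direction in all 16. Leaving out 1 library at a time moved the log2 fold change of *Kdr* between -0.38 and 0.19, *Etv2* between -0.34 and 0.14, *Tal1* between -0.12 and 0.12 and *Pecam1* between -0.27 and 0.31. These 4 changed direction. The others ranged from 0.26 to 0.81 (*Hand1*), 0.17 to 0.64 (*Gata2*), 0.16 to 0.56 (*Cdh5*), 0.11 to 0.54 (*Fli1*), 0.020 to 0.49 (*Sox7*) and -0.53 to -0.038 (*Lmo2*), so that the last 2 came close to 0, and the median of the 10 from 0.017 to 0.40. With 2 libraries left in a line, the same spread was assumed for both lines. No other scaling moved the median of all genes by over 0.1. The lowest member, *Sox7*, rested on 17 to 60 reads per library.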
